A study of Mus musculus with 4 samples.

Results

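The 9 genes described here encode proteins that expose, bind or bridge phosphatidylserine (PS) or restrain the engulfment of dead cells. They are the receptors *Mertk*, *Axl* and *Stab1*, the bridging proteins *Gas6* and *Mfge8*, the inhibitory pair *Cd47* and *Sirpa*, and the scramblases *Xkr8* and *Plscr1*. They were picked by gene symbol as functional relatives of CD300a, and all 9 were found among the 25655 genes of the deposited tables. PS is held on the inner leaflet of the plasma membrane of living cells by flippases and reaches the outer leaflet during apoptosis through scramblases. Phagocytes read it directly through receptors such as stabilin-1, or through bridges that tie PS to a receptor, as growth arrest-specific protein Gas6 does for the TAM receptor tyrosine kinases and MFG-E8 does for αv integrins. CD47 on the target signals to SIRPα on the phagocyte and holds engulfment back, and CD300a is an inhibitory myeloid receptor that itself binds PS. In the injured heart, macrophages are the best known engulfing cells, and dying neutrophils are among their main targets.

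RNA-Seq had been performed on neutrophils (CD45.2+CD11b+Ly6G+ cells) sorted 3 days after myocardial ischemia and reperfusion (MI/R) from hearts of WT and *Cd300a-/-* mice. The methods give male mice aged 8 to 12 weeks and a C57BL/6 background, and the knockout was a conventional one, not limited to neutrophils. The labels divide the cells into SiglecF-negative and SiglecF-positive neutrophils, named SiglecF lo and SiglecF hi below. Each of the 4 groups was 1 library from 8 pooled hearts and at least 20000 cells, so no difference has a replicate check and the values describe these 4 libraries. No group was without MI/R. Depth differed between the subsets: the SiglecF lo libraries held 9631901 (WT) and 10988619 (*Cd300a-/-*) counts on genes, and the SiglecF hi libraries 19278243 (WT) and 17632989 (*Cd300a-/-*).

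The targeted gene followed the labels. *Cd300a* had 3024 counts in WT SiglecF lo and 6640 in WT SiglecF hi neutrophils, against 28 and 27 counts in the corresponding *Cd300a-/-* libraries. As TPM, transcript abundance corrected for gene length and depth, these were 127 and 163 against 1.06 and 0.74. The sorting marker *Siglecf* lay at 11.3 TPM in WT against 15.3 TPM in *Cd300a-/-* SiglecF lo cells, and at 354 and 405 TPM in the SiglecF hi libraries. *Ly6g*, which encodes the antigen used to gate neutrophils, did not have the same level throughout. It lay at 330.4 TPM in WT against 889 TPM in *Cd300a-/-* SiglecF lo cells, but at 11.1 and 41.9 TPM in the SiglecF hi libraries, although every library was sorted as Ly6G+.

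Markers of other cell types were present in all 4 libraries. The 10 neutrophil markers summed to 155327 TPM in WT against 203924 TPM in *Cd300a-/-* SiglecF lo cells, and to 28769 and 33875 TPM in the SiglecF hi libraries, with the calprotectin subunit *S100a9* highest. The 16 macrophage markers, all with more than 3 counts in every library, went the other way. They summed to 6427 TPM in WT against 5561 TPM in *Cd300a-/-* SiglecF lo cells and to 17608 and 16208.5 TPM in the SiglecF hi libraries, and the lipid carrier *Apoe* was the highest of them, at 2637, 2109, 8313 and 8107 TPM. The SiglecF hi sum was 2.74 times the SiglecF lo sum in WT and 2.91 times in *Cd300a-/-* mice. In such bulk libraries, fewer cells of a type and less RNA per cell cannot be told apart.

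**Figure D1:**
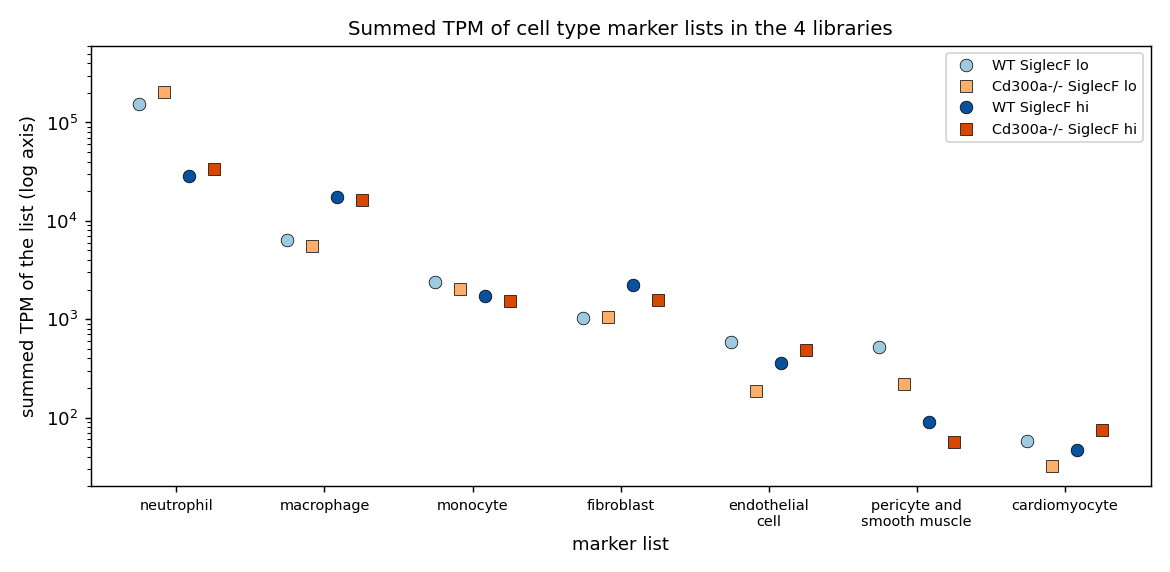
Summed TPM (log axis) of 7 lists of cell type markers in the 4 libraries, 1 point per library, circles for WT and squares for *Cd300a-/-*, light for SiglecF lo and dark for SiglecF hi. The neutrophil list is lower and the macrophage list higher in both SiglecF hi libraries, and the endothelial list is lowest in *Cd300a-/-* SiglecF lo cells (188 TPM).

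Remaining marker lists were smaller. Of the 6 monocyte markers the sums were 2370.3 TPM in WT against 2018 TPM in *Cd300a-/-* SiglecF lo, and 1711 and 1523 TPM in WT and *Cd300a-/-* SiglecF hi cells, led by *Ly6c2* in the SiglecF lo and *Chil3* in the SiglecF hi libraries. The 9 fibroblast markers, led by *Dcn*, summed in the same order to 1028, 1053, 2204 and 1553 TPM. The 10 endothelial markers, led by the fatty acid carrier *Fabp4*, summed to 591, 188, 363 and 484 TPM. The 6 markers of pericytes and smooth muscle, led by *Acta2*, summed to 520.4, 221, 90.2 and 56.3 TPM, and the 8 cardiomyocyte markers to 57.4, 32.0, 47.3 and 75.0 TPM, with *Ryr2* at 0 in both *Cd300a-/-* libraries. Nearly all of the eosinophil sum came from *Cd9*, a tetraspanin of many cell types, while *Epx*, which encodes eosinophil peroxidase, had 0 counts in all 4 libraries, which allows up to 3, and *Prg2* and *Ear6* were at 0 in all but WT SiglecF hi neutrophils. The eosinophil sums were 1829, 1335, 1223 and 1287 TPM. The 7 dendritic cell markers summed to no more than 14.7 TPM in any library, with *Flt3* and *Xcr1* at 0 in WT and *Clec9a* and *Cd209a* at 0 in *Cd300a-/-* SiglecF lo cells. The 7 lymphocyte markers summed to no more than 19.1 TPM, and *Cd3e* was at 0 in all but WT SiglecF lo neutrophils.

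Levels of the 9 genes ran from 1.10 to 425 TPM. *Sirpa* had the highest TPM in each of the 4 libraries and *Xkr8* the lowest. With exact 95% Poisson intervals, which cover counting error only, *Cd47* and *Plscr1*, *Plscr1* and *Axl*, *Mfge8* and *Gas6*, and *Gas6* and *Stab1* could not be ordered in WT SiglecF lo neutrophils. In *Cd300a-/-* SiglecF lo cells this held for *Stab1* and *Cd47* alone, and *Plscr1* stood next to *Sirpa* at the top. In both SiglecF hi libraries the order from the top was *Sirpa*, *Stab1*, *Gas6*, *Cd47* and *Axl*, each apart from the next, except that *Axl* and *Mfge8* overlapped in *Cd300a-/-* mice. *Mfge8* and *Plscr1* overlapped in both SiglecF hi libraries, and *Plscr1* and *Mertk* in the WT one. *Stab1* thus ranked 7 of 9 in WT SiglecF lo, 3 of 9 in *Cd300a-/-* SiglecF lo and 2 of 9 in both SiglecF hi libraries.

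**Figure D2:**
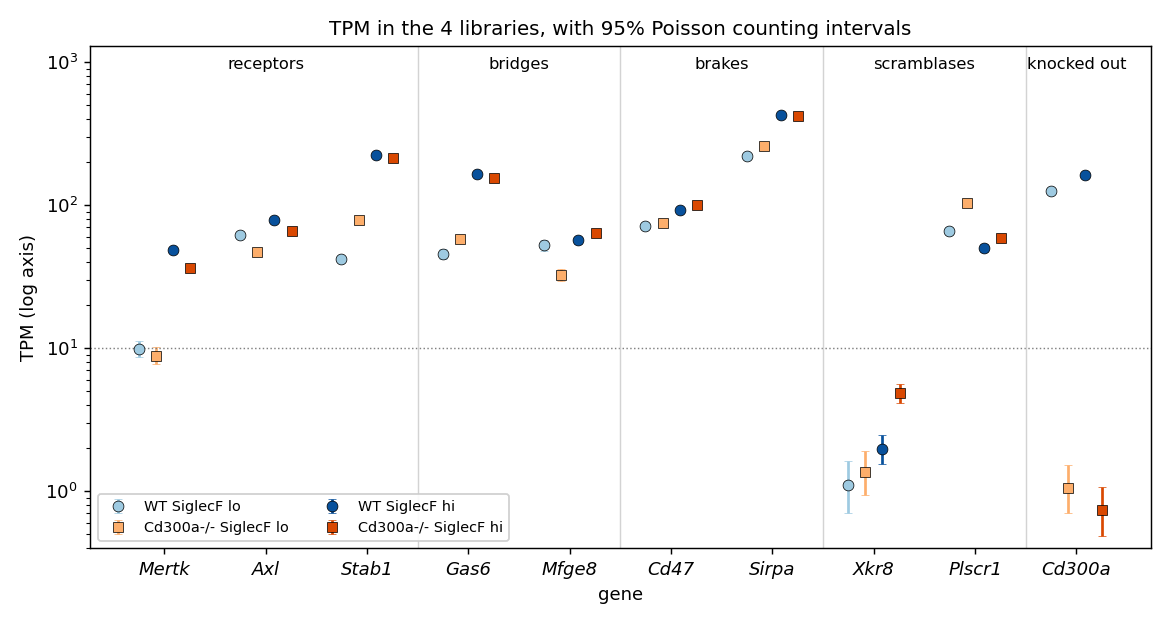
TPM (log axis) of the 9 genes and of *Cd300a* in the 4 libraries, 1 point per library with its 95% Poisson counting interval, circles for WT and squares for *Cd300a-/-*, light for SiglecF lo and dark for SiglecF hi. The dotted line marks 10 TPM; *Xkr8* lies under it in every library, *Mertk* in both SiglecF lo libraries, and *Cd300a* in both *Cd300a-/-* libraries.

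For each comparison the log2 ratio of TPM + 1 was taken between 2 libraries, with a 95% counting interval from the split of their counts (Clopper-Pearson). Genes with a mean TPM over 10 in the 4 libraries were compared, which kept 6523 of the 25655 genes and 8 of the 9 described here. *Xkr8* did not pass, and *Mertk* passed through its SiglecF hi level. A gene was called higher or lower past 0.5 on the log2 scale, which is a size and not a test. The 4 comparisons share libraries, since each library enters 1 comparison of genotypes and 1 of subsets.

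The comparison of genotypes within SiglecF lo neutrophils asks how these genes were expressed where CD300a was missing. In *Cd300a-/-* SiglecF lo cells, the scavenger receptor *Stab1* and the scramblase *Plscr1* were higher than in WT, and the bridge *Mfge8* was lower. That is 2 of 8 higher, where 16.4% of all genes tested were, and 1 of 8 lower, where 19.9% were, so that the number called among the 8 was close to the background. Their median ratio was 0.15, beside −0.02 for all genes tested.

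*Stab1* (ENSMUSG00000042286, chr14:30860970-30890598, minus strand; positions here and below are those of the deposited tables, for which the submitters' processing notes name GRCm39) encodes stabilin-1, a large scavenger receptor of macrophages and sinusoidal endothelium that binds PS on dying cells. It had 1724 counts (41.9 TPM) in WT and 3594 counts (79.3 TPM) in *Cd300a-/-* SiglecF lo cells. The log2 ratio was 0.90 (0.82 to 0.98), the largest among the 8 genes in this comparison. The SiglecF hi libraries lay above both, with 15855 counts (226 TPM) in WT and 13516 counts (215 TPM) in *Cd300a-/-* mice, and there the genotype ratio was −0.07 (−0.10 to −0.04). Of the 15 macrophage markers over the TPM limit, 2 were also higher in *Cd300a-/-* SiglecF lo cells, *Cd163* (13.8 TPM in WT and 34.8 TPM in *Cd300a-/-* mice) and *Mrc1* (48.8 and 77.9 TPM), and *Fcgr1*, *Cx3cr1* and *Ms4a7* were lower, so that 13.3% were higher and 20.0% lower, beside 16.4% and 19.9% of all genes tested. Between the SiglecF hi libraries 2 of the 15, *Cd163* (20.5 and 38.2 TPM) and *Lyve1* (9.41 and 17.2 TPM), were higher without CD300a and 0 lower, or 13.3% beside 3.31% of all genes, and *Mrc1* was not (150 and 143 TPM). The part of macrophage RNA in the *Stab1* values was not tested.

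The other receptors are TAM kinases. *Mertk* (ENSMUSG00000014361, chr2:128540876-128644814, plus strand), the TAM receptor best known for efferocytosis by macrophages, had 219 counts (9.91 TPM) in WT and 217 counts (8.90 TPM) in *Cd300a-/-* SiglecF lo cells. It had 1842 counts (48.8 TPM) and 1228 counts (36.3 TPM) in WT and *Cd300a-/-* SiglecF hi cells. Its genotype ratio was −0.14 (−0.39 to 0.11) in SiglecF lo, where the interval holds 0, and −0.42 (−0.52 to −0.31) in SiglecF hi neutrophils. *Axl* (ENSMUSG00000002602, chr7:25456698-25488130, minus strand), the TAM receptor that answers to inflammatory signals, was more even, at 62.3 and 46.9 TPM in WT and *Cd300a-/-* SiglecF lo and at 79.4 and 66.2 TPM in the SiglecF hi libraries. Its ratio was −0.40 (−0.51 to −0.29) in SiglecF lo and −0.26 (−0.34 to −0.18) in SiglecF hi neutrophils. Both TAM ratios had a negative sign in both subsets, and none of the 4 was past the threshold. *Tyro3*, the remaining TAM receptor, did not exceed 1.45 TPM in any library (named after its values were seen).

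Of the bridges, *Mfge8* (ENSMUSG00000030605, chr7:78783516-78798808, minus strand) encodes the secreted MFG-E8, which joins PS to αv integrins. It had 573 counts (52.5 TPM) in WT and 391 counts (32.4 TPM) in *Cd300a-/-* SiglecF lo cells, a log2 ratio of −0.68 (−0.86 to −0.49). In SiglecF hi neutrophils it had 1058 counts (56.7 TPM) in WT and 1063 counts (63.7 TPM) in *Cd300a-/-* mice, a ratio of 0.16 (0.04 to 0.29). The *Cd300a-/-* SiglecF lo library was therefore the low one of 4, and the other 3 lay between 52.5 and 63.7 TPM. The endothelial list had its lowest sum in the same library. It was 0.317 times the WT sum in SiglecF lo and 1.34 times in SiglecF hi neutrophils, with 6 of 7 genes over the TPM limit lower in SiglecF lo neutrophils, where 19.9% of all genes tested were. The list of pericyte and smooth muscle genes was 0.424 times the WT sum in SiglecF lo neutrophils and 0.624 times in SiglecF hi neutrophils, where *Mfge8* was not lower. The part of these cells in the *Mfge8* values was not tested.

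*Gas6* (ENSMUSG00000031451, chr8:13515374-13544490, minus strand), the vitamin K-dependent ligand of the TAM receptors, had 595 counts (45.4 TPM) in WT and 837 counts (58.0 TPM) in *Cd300a-/-* SiglecF lo cells. In SiglecF hi neutrophils it had 3699 counts (165 TPM) and 3126 counts (156 TPM). Its ratio was 0.34 (0.19 to 0.49) in SiglecF lo and −0.08 (−0.15 to −0.01) in SiglecF hi neutrophils, neither past the threshold. As with *Stab1*, the SiglecF hi libraries were both far above the SiglecF lo ones and near each other.

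The inhibitory pair moved little with genotype. *Cd47* (ENSMUSG00000055447, chr16:49620896-49735373, plus strand), the signal against engulfment on the surface of most cells, lay at 71.6 and 75.4 TPM in WT and *Cd300a-/-* SiglecF lo cells and at 92.0 and 101 TPM in the SiglecF hi libraries. Its genotype ratio was 0.07 (−0.01 to 0.15) in SiglecF lo and 0.13 (0.07 to 0.19) in SiglecF hi neutrophils. *Sirpa* (ENSMUSG00000037902, chr2:129434755-129474148, plus strand), the myeloid receptor for CD47, carries inhibitory tyrosine motifs as CD300a does. It lay at 221 and 261 TPM in the SiglecF lo and at 425 and 420.0 TPM in the SiglecF hi libraries, WT named first. Its genotype ratio was 0.24 (0.18 to 0.29) in SiglecF lo and −0.02 (−0.05 to 0.02) in SiglecF hi neutrophils. Both genes were counted deeply, from 2292 counts upward in every library, so the narrow intervals place each of these ratios within the threshold.

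Of the scramblases, *Plscr1* (ENSMUSG00000032369, chr9:92131803-92154331, plus strand), an interferon-inducible membrane protein named for lipid scrambling, had 804 counts (66.1 TPM) in WT and 1389 counts (104 TPM) in *Cd300a-/-* SiglecF lo cells. The log2 ratio was 0.64 (0.51 to 0.76). In SiglecF hi neutrophils it had 1043 counts (50.2 TPM) and 1097 counts (59.0 TPM), a ratio of 0.23 (0.11 to 0.35). It was the only one of the 9 genes with its highest TPM in *Cd300a-/-* SiglecF lo cells. The neutrophil marker list was also highest there, at 1.31 times the WT sum, with 4 of 10 genes higher and 0 lower (40% and 0%, beside 16.4% and 19.9% of all genes tested), and its part in the *Plscr1* value was not tested. *Xkr8* (ENSMUSG00000037752, chr4:132452208-132459857, minus strand), which is cleaved by caspases and exposes PS in apoptosis, had 24 and 33 counts in WT and *Cd300a-/-* SiglecF lo cells and 74 and 162 counts in the SiglecF hi libraries. These were 1.10, 1.37, 1.99 and 4.86 TPM. Its ratio of 0.97 (0.68 to 1.26) between the SiglecF hi libraries was past the threshold but is not counted, since the gene was under the TPM limit, and that of 0.18 (−0.27 to 0.60) between the SiglecF lo libraries was not distinguishable from 0 at this depth.

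**Figure D3:**
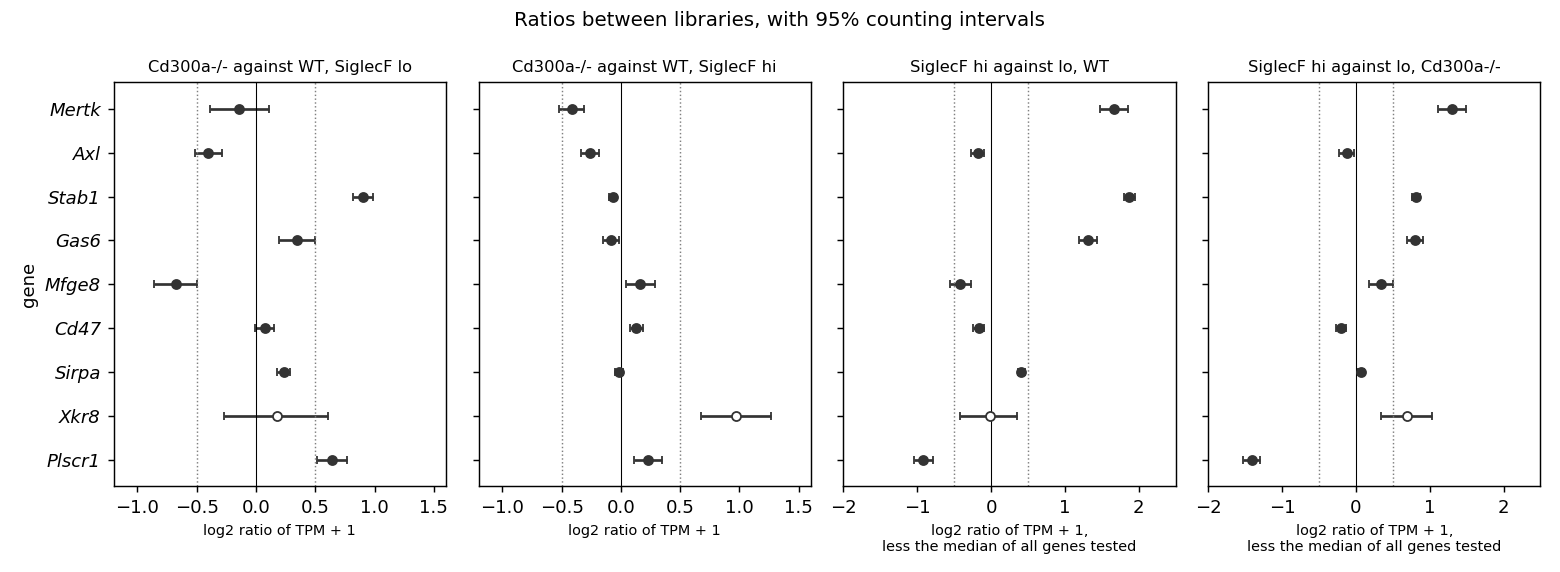
Log2 ratios of TPM + 1 of the 9 genes in the 4 comparisons, 1 point per gene with its 95% counting interval. The subset comparisons are less the median of all genes tested, dotted lines mark 0.5 in either direction, and the open point is *Xkr8*, under the TPM limit. *Stab1* and *Plscr1* lie past 0.5 and *Mfge8* past −0.5 between genotypes in SiglecF lo neutrophils, and none of the filled points do so in SiglecF hi neutrophils.

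Within SiglecF hi neutrophils, 0 of the 8 genes were called between genotypes in either direction. Of all genes tested, 3.31% were higher and 3.46% were lower without CD300a, so that 0 of 8 is near that background. The median ratio of the 8 genes was −0.04, beside 0.04 for all genes. The ratios ran from −0.42 for *Mertk* to 0.23 for *Plscr1*.

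The subset comparison asks how SiglecF hi differed from SiglecF lo neutrophils of the same genotype. Here the median of all genes tested was itself shifted, by 0.53 in WT and 0.61 in *Cd300a-/-* mice on the log2 scale, and ratios were taken less that median. *Mertk*, *Stab1* and *Gas6* were higher and *Plscr1* was lower in SiglecF hi neutrophils of both genotypes. In WT mice, 3 of 8 genes were higher, where 19.3% of all genes tested were, and 1 of 8 was lower, where 20.9% were. In *Cd300a-/-* mice, the same numbers stood beside 21.2% higher and 23.6% lower. Since *Mertk* passed the TPM limit through the SiglecF hi libraries, where it is high, the limit favoured its call; without it, 2 of 7 were higher and 1 of 7 lower in either genotype (28.6% and 14.3%). Without centring, 4 of 8 were higher and 0 lower in WT, with *Sirpa* added above and *Plscr1* at −0.39, and 5 of 8 were higher and 1 lower in *Cd300a-/-* mice, with *Sirpa* and *Mfge8* added above. Of all genes tested, 51.9% were then higher and 7.47% lower in WT, and 56.6% higher and 7.97% lower in *Cd300a-/-* mice.

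*Stab1* had the largest subset ratio of the 8 genes in WT, 1.87 (1.80 to 1.95), and 0.82 (0.76 to 0.87) in *Cd300a-/-* mice. *Mertk* followed with 1.66 (1.48 to 1.85) in WT and had the largest ratio in *Cd300a-/-* mice, 1.30 (1.11 to 1.50). *Gas6* stood at 1.31 (1.19 to 1.44) and 0.80 (0.69 to 0.91). *Axl*, another receptor of Gas6, stood at −0.18 (−0.27 to −0.09) in WT and −0.13 (−0.23 to −0.02) in *Cd300a-/-* mice, or at 0.35 and 0.49 without centring. *Stab1*, *Mertk* and *Gas6* moved in the same direction as the macrophage list, of which 10 of 15 genes over the TPM limit (66.7%) were higher and 1, *Lyve1*, lower in WT SiglecF hi neutrophils, beside 19.3% and 20.9% of all genes tested. In *Cd300a-/-* mice 7 (46.7%) were higher and 1 lower, again *Lyve1* and there through centring alone, beside 21.2% and 23.6%. The fibroblast list moved with it in WT, where 4 of 7 genes (57.1%) were higher and 0 lower and the sum was 2.14 times that in SiglecF lo cells. In *Cd300a-/-* mice 0 of 7 were higher and 2 lower, through centring, and the sum was 1.48 times. The part of both lists in the values of the 3 genes was not tested.

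*Plscr1* was lower in SiglecF hi neutrophils, by −0.92 (−1.05 to −0.78) in WT and −1.41 (−1.53 to −1.30) in *Cd300a-/-* mice. This was the direction of the neutrophil list, of which 8 and 9 of 10 genes were lower, beside 20.9% and 23.6% of all genes tested. Without centring 5 and 7 of 10 were lower, beside 7.47% and 7.97%. The list holds the sorting markers *Ly6g*, lower in both genotypes, and *Siglecf*, the 1 gene higher in each. Other lists moved this way too: 5 and 4 of 6 monocyte genes and all 4 pericyte and smooth muscle genes over the limit were lower in WT and *Cd300a-/-* mice. Of 7 endothelial genes all were lower in WT, while in *Cd300a-/-* mice 0 were lower and 2 higher. Without centring, 2 and 1 of 6 monocyte genes were lower and 1 was higher in each genotype. On that scale 4 and 3 of 4 pericyte and smooth muscle genes were lower, and 6 of 7 endothelial genes were lower in WT and 6 higher in *Cd300a-/-* mice. The part of these lists in the *Plscr1* values was not tested. Even without centring its ratio was negative, −0.39 and −0.80. *Mfge8* stood at −0.42 (−0.56 to −0.27) in WT and 0.34 (0.17 to 0.50) in *Cd300a-/-* mice, and at 0.11 and 0.95 without centring, so that its sign in WT depended on the scale. *Cd47* stood at −0.17 and −0.20 with centring and at 0.36 and 0.41 without, and *Sirpa* at 0.41 and 0.07 with and at 0.94 and 0.69 without. The sign of *Cd47* thus depended on the scale, and *Sirpa* lay over 0 on both but past the threshold only without centring. *Xkr8*, under the limit, stood at −0.02 (−0.42 to 0.36) in WT and 0.69 (0.33 to 1.03) in *Cd300a-/-* mice.

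The wider pathway was described with 8 lists of 105 genes in all, of which 80 passed the TPM limit and which include the genes above. Between genotypes in SiglecF lo neutrophils, 16 of 80 (20.0%) were higher and 8 (10.0%) lower in *Cd300a-/-* mice, with a median of 0.13, where 16.4% of all genes tested were higher and 19.9% lower. The deleted *Cd300a* itself is among the 8 lower. The higher share was near the background and the lower share was under it. In SiglecF hi neutrophils, 1 was higher and 1, *Cd300a* itself, was lower, with a median of 0.02, beside 3.31% and 3.46% of all genes. The higher one was *Gpr132*, a receptor for lysophospholipids, at 153 TPM in WT against 218 TPM in *Cd300a-/-* mice, a ratio of 0.51 (0.45 to 0.57) that was 0.47, within the threshold, on the centred scale. Between subsets, 19 of 80 (23.8%) were higher and 16 (20.0%) lower in WT SiglecF hi neutrophils, beside 19.3% and 20.9% of all genes, and 15 (18.8%) higher and 24 (30.0%) lower in *Cd300a-/-* ones, beside 21.2% and 23.6%. Without centring these became 40 higher and 4 lower in WT (50% and 5.00%, beside 51.9% and 7.47% of all genes), and 37 higher and 10 lower in *Cd300a-/-* mice (46.3% and 12.5%, beside 56.6% and 7.97%). These shares of all genes are the background for the lists that follow. Of the genes called lower on the centred scale, 4 of 16 in WT and 10 of 24 in *Cd300a-/-* mice were also lower without centring, and 1 and 4 had a plain ratio over 0.

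Among the scramblases, flippases and their partners, 12 of 17 genes passed the limit, and in SiglecF lo neutrophils 4 were higher in *Cd300a-/-* mice. The largest positive ratios of pathway genes over the limit in this comparison were those of the flippases *Atp11a* and *Atp8a1*, which return lipids such as PS to the inner leaflet. *Atp11a* lay at 15.0 TPM in WT against 45.1 TPM in *Cd300a-/-* SiglecF lo cells, a ratio of 1.53 (1.41 to 1.65), and at 13.6 and 15.2 TPM in the SiglecF hi libraries. *Atp8a1* lay at 5.98 and 18.7 TPM in SiglecF lo, a ratio of 1.50 (1.32 to 1.68), and at 13.9 and 15.1 TPM in SiglecF hi neutrophils. For *Atp11a* the *Cd300a-/-* SiglecF lo library was the high one, whereas for *Atp8a1* the WT SiglecF lo library was the low one. Of the neutrophil markers, 4 of 10 were also higher in this comparison and 0 lower (40% and 0%, beside 16.4% and 19.9% of all genes). Their part in the flippase values was not tested. Between subsets, 2 genes of this list were higher and 3 lower in WT, and 1 higher and 4 lower in *Cd300a-/-* SiglecF hi cells, and without centring 6 higher and 0 lower, and 7 higher and 3 lower. *Atp11a* was among the lower genes in both, at −0.66 (−0.79 to −0.53), which was −0.13 without centring, and −2.12 (−2.22 to −2.02).

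Of 22 receptors for PS or its bridges, 13 passed the limit. In SiglecF lo neutrophils 4 were higher in *Cd300a-/-* mice (*Stab1*, *Lrp1*, *Cd300lf* and *Itgav*), and 1, the lipid receptor *Trem2*, was lower, or 30.8% and 7.69% beside 16.4% and 19.9% of all genes. *Trem2* lay at 157 TPM in WT against 78.1 TPM in *Cd300a-/-* SiglecF lo cells, a ratio of −1.0 (−1.16 to −0.84), and at 520.1 and 405 TPM in the SiglecF hi libraries. Between the SiglecF hi libraries 0 of 13 were called. This list held the largest number of genes higher in SiglecF hi than in SiglecF lo neutrophils, 8 of 13 in WT with a median of 0.66, and 6 of 13 in *Cd300a-/-* mice with a median of 0.44, beside a median of 0 for all genes on the centred scale. As shares these were 61.5% and 46.2%, where 19.3% and 21.2% of all genes were higher, and without centring 76.9% and 69.2%, where 51.9% and 56.6% were. The shares of macrophage markers higher were 66.7% and 46.7% with centring and 73.3% and 86.7% without, and their part in this list was not tested. Without *Mertk*, 7 and 5 of 12 receptors were higher (58.3% and 41.7%). The largest in *Cd300a-/-* mice was *Trem2*, 1.75 (1.61 to 1.88), followed by *Mertk* and by *Olr1*, which encodes the receptor LOX-1 for oxidized lipoprotein, with 0.82 (0.71 to 0.93). Lower in SiglecF hi neutrophils of both genotypes were *Cd300lb* and *Cd300lf*, relatives of *Cd300a*, the latter in WT through centring.

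Of 10 bridging and opsonising proteins, 9 passed the limit. In SiglecF lo neutrophils *Anxa1*, *Thbs1* and *C3* were higher in *Cd300a-/-* mice and *Mfge8* was lower, or 33.3% and 11.1% beside 16.4% and 19.9% of all genes. *Anxa1*, which encodes the PS-binding annexin A1 of neutrophils, lay at 826 TPM in WT against 1452 TPM in *Cd300a-/-* SiglecF lo cells, a ratio of 0.81 (0.77 to 0.85), and at 426 and 452 TPM in the SiglecF hi libraries. The neutrophil marker list also had its highest sum in *Cd300a-/-* SiglecF lo cells, and its part in the *Anxa1* values was not tested. Between the SiglecF hi libraries 0 of 9 were called. *Gas6* and the complement genes *C1qa*, *C1qb* and *C1qc*, which are also in the macrophage list, were the 4 genes higher in SiglecF hi than in SiglecF lo neutrophils of both genotypes. *Anxa1* was lower in both, at −1.48 (−1.52 to −1.43) in WT and −2.30 (−2.34 to −2.26) in *Cd300a-/-* mice, and *Thbs1* in the latter, through centring.

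Of 10 brakes on engulfment, 9 passed the limit. Apart from *Cd300a*, 1 was called between genotypes, the adhesion molecule *Pecam1*, which is also in the endothelial list. It lay at 57.5 TPM in WT against 15.6 TPM in *Cd300a-/-* SiglecF lo cells, a ratio of −1.82 (−1.99 to −1.66), and at 23.2 and 30.4 TPM in the SiglecF hi libraries. Between subsets no brake was higher on the centred scale, while of the 8 other than *Cd300a*, 3 were lower in WT (*Pecam1*, *Lilrb4a* and *Pirb*) and 3 in *Cd300a-/-* mice (*Pirb*, *Lilrb4a* and *Ptpn6*), or 37.5% in each, where 20.9% and 23.6% of all genes were lower. Without centring 1 was lower in each, *Pecam1* in WT and *Pirb* in *Cd300a-/-* mice, and 2 were higher in each. *Pecam1* had the lowest ratio of the pathway in WT, −1.80 (−1.92 to −1.68), and stood at 0.31 (0.15 to 0.48) in *Cd300a-/-* mice. The deleted *Cd300a* passed the TPM limit through the WT libraries, and with 28 and 27 counts in the *Cd300a-/-* ones its ratio there says nothing of a brake. It is among the 24 pathway genes lower between these subsets, which are 23 of 79 without it (29.1%). *Ptpn6* had a plain ratio over 0 (431 TPM in SiglecF lo and 464 TPM in SiglecF hi neutrophils of *Cd300a-/-* mice).

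Downstream of recognition, 13 of 15 genes of engulfment signalling passed the limit, and 1, the exchange factor *Dock5*, was higher between genotypes, with a ratio of 0.67 in SiglecF lo neutrophils. Between subsets 0 were higher and 3 lower in WT (*Tyrobp*, *Rac2* and *Dock2*), and 0 higher and 5 lower in *Cd300a-/-* mice, or 23.1% and 38.5% lower, where 20.9% and 23.6% of all genes were. These calls came from centring: without it 0 were lower, 5 were higher in WT and 3 in *Cd300a-/-* mice, and the plain ratios of *Dock2* in WT and of *Crk* and *Crkl* in *Cd300a-/-* mice were over 0. Of 17 genes of digestion and lipid handling, 15 passed. In SiglecF lo neutrophils *Abca7*, *Ppard* and *Slc7a11* were higher and *Pparg* lower in *Cd300a-/-* mice. Those are 20.0% and 6.67%, beside 16.4% and 19.9% of all genes. The transporter gene *Abca7* lay at 21.6 and 39.9 TPM, a ratio of 0.86 (0.74 to 0.98), and the nuclear receptor gene *Pparg* at 15.3 and 5.93 TPM (201 and 86 counts), a ratio of −1.23 (−1.56 to −0.90). In SiglecF hi neutrophils *Pparg* lay at 16.0 and 17.3 TPM. The endothelial list was also lowest in *Cd300a-/-* SiglecF lo cells, with 6 of 7 genes lower than in WT, beside 19.9% of all genes. Its part in the *Pparg* values was not tested. The neutrophil list was highest in that library, and its part in the *Abca7* values was not tested. Between subsets 5 of these 15 genes were higher (33.3%) and 3 lower (20.0%) in WT, and 4 higher (26.7%) and 5 lower (33.3%) in *Cd300a-/-* mice, beside 19.3% and 20.9% and beside 21.2% and 23.6% of all genes. Without centring 7 were higher in each, and 1 and 2 were lower; *Ucp2*, lower in *Cd300a-/-* mice with centring, had a plain ratio over 0. On both scales and in both genotypes the cholesterol exporter *Abca1*, the lysosomal lipase *Lipa* and *Dnase2a* were higher. *Map1lc3b*, of the autophagy machinery, was lower in both, at −1.31 (−1.36 to −1.26) and −1.22 (−1.27 to −1.17).

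Of 8 genes for find-me signals, which draw phagocytes to dying cells, and their receptors, 4 passed. *Cx3cr1*, the fractalkine receptor and also a macrophage marker, was lower in *Cd300a-/-* SiglecF lo cells, at 22.9 TPM against 39.1 TPM in WT, a ratio of −0.75 (−0.90 to −0.60). Between the SiglecF hi libraries 1 of the 4, *Gpr132* as given above, was higher without CD300a (25%, beside 3.31% of all genes), though not on the centred scale. Between subsets 0 were called in WT and 1, *P2ry2*, was lower in *Cd300a-/-* mice, through centring. Of 6 genes for the shedding of TAM receptors and their feedback, 5 passed. *Rhbdf2*, which encodes iRhom2, a partner of the sheddase ADAM17, lay at 30.5 TPM in WT against 66.8 TPM in *Cd300a-/-* SiglecF lo cells, a ratio of 1.11 (0.97 to 1.24), and at 37.5 and 34.8 TPM in SiglecF hi neutrophils. The inhibitor gene *Timp3* was lower between genotypes in SiglecF lo neutrophils, with a ratio of −0.57. That is 1 of 5 higher and 1 of 5 lower, 20.0% each, beside 16.4% and 19.9% of all genes. The neutrophil marker list also had its highest sum in *Cd300a-/-* SiglecF lo cells. Its part in the *Rhbdf2* values was not tested. Between subsets *Timp3* was lower in WT, through centring, and *Rhbdf2*, at −1.53 (−1.65 to −1.42), in *Cd300a-/-* SiglecF hi cells.

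The pattern of each gene over the limit was set against other genes over the limit. Genes whose symbol is Gm and a number, or ends in Rik, were left out and are not in the counts below. The measure was the Euclidean distance of log2(TPM + 1), centred per gene, over the 4 libraries. *Mertk* had no gene within 0.2, and its nearest were *Serpinb6a* (distance 0.21), *Lrp12* (0.22) and *Vegfb* (0.23). *Stab1* had 5 within 0.2, the nearest being *Gdf15* (0.15), *Hpgds* (0.18) and *Fiz1* (0.19), and *Gas6* had 19, led by *Gpr55* (0.05), *Ang* (0.10) and *Bms1* (0.11). *Plscr1* had 34, led by *Khnyn* (0.03), *Actn1* (0.06) and *Rasgrp4* (0.07). The flatter patterns were common. *Mfge8* had 97 genes within 0.2 (nearest *Fam50a*, *Ptger2* and *Hsbp1*), *Axl* 157 (*Sec23b*, *Sec11c* and *Nde1*), *Sirpa* 274 (*Ankle2*, *Pdcd6ip* and *Septin2_2*) and *Cd47* 348 (*Crlf3*, *Mapre2* and *Actr2*). Over 4 libraries such likeness is a description of shape.

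Promoter sequence was read from RefSeq on GRCm38.p6, an earlier build than the GRCm39 named for the deposited positions. Of the 9 genes, 7 were matched by symbol, and *Sirpa* and *Xkr8* were not. The interferon-response letters, GAAA followed by a pair of any bases and GAAA, searched on both strands from 250 bases before to 50 after the start, were found in 0 of these 7 genes, *Plscr1* included, in 3.44% of all 32851 windows of that length and in 4.48% of the 5271 genes over the TPM limit that had a window. The core letters of PU.1 sites, GAGGAA, chosen after the values were seen and searched on both strands in the 250 bases before the start, were found in 23.3% of 32851 such windows and in 27.6% of the 5271 genes over the limit. Of the 7 genes, *Axl*, *Mfge8*, *Plscr1* and *Stab1* had them, unlike *Mertk*, *Gas6* and *Cd47*. The genes higher in SiglecF hi neutrophils of both genotypes therefore did not share it. Their upstream sequences are shown because these 3 genes moved together between subsets, with GAGGAA in capitals where it occurs, each read 5′ to 3′ on the strand of its gene. They are chr2:128698665-128698914 (plus strand, 63.6% G and C) for *Mertk*, chr14:31168642-31168891 (minus strand, 57.2%) for *Stab1* and chr8:13494536-13494785 (minus strand, 54.8%) for *Gas6*.
Mertk: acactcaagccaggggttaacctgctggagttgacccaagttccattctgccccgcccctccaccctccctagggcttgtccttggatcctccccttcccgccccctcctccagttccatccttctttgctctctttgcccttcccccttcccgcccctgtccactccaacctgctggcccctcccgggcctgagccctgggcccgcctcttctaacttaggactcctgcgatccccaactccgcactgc
Stab1: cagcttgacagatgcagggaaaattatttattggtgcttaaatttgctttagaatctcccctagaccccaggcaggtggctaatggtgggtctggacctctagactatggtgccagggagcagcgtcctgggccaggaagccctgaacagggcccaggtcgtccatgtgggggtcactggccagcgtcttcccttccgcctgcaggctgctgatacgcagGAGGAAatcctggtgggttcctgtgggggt
Gas6: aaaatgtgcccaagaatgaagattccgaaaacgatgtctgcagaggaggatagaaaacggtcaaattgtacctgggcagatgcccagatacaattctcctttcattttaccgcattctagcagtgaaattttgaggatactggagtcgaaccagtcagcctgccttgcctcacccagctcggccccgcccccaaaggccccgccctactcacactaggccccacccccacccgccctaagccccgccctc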

How the data were processed

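The processed RNA-Seq tables of 4 libraries, 1 per genotype and neutrophil subset, were used. Per the methods, poly(A) RNA was sequenced as paired-end reads and processed in CLC Genomics Workbench. The submitters' processing notes name GRCm39, and the annotation release and mapping settings are not given in the sources used here. The count deposited per gene is a whole number without normalization. The authors deposited TPM and RPKM, both scaled by gene length and depth. A column labelled CPM was treated as a signal, since in it the authors divided library-scaled counts by each library's TMM factor. Counts and TPM were analysed, and RPKM and that signal were only checked.

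Ratios were log2((TPM + 1) ratio) for genes with a mean TPM over 10, called past 0.5, the subset ratios less the median of all genes tested. Intervals (95%) were Clopper-Pearson on the split of 2 counts and exact Poisson for levels, and cover counting error only, since reads are not independent molecules. With 1 library per group no test was made. The calculations were tested on simulated counts. Alternatives were a pseudocount of 0.1, a mean TPM over 1, a TPM over 10 in at least 1 library, a threshold of 1, CPM scaled by TMM factors, and centring or none. Members and lists (8 of pathway genes, 10 of markers) were chosen with earlier results of these data known. Genes named were the 9 members, *Cd300a*, *Siglecf* and *Ly6g*, up to 6 pathway genes per direction with the largest called ratios between genotypes, 3 between subsets, the top gene and markers at 0 of each marker list, and the 3 nearest patterns. A result that needs a withheld item was left out. Other names stand where a list's count is small and were added after the values were seen. Promoters came from RefSeq (GRCm38.p6). Protein sequences were not used here. Python 3.11.15, numpy 2.4.6, scipy 1.17.1, pandas 2.3.3, matplotlib 3.10.9, R 4.3.3 and edgeR 4.0.16 (TMM factors) were used.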

Additional observations from a re-analysis of the deposited data

Results flagged for a closer look

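For 3 genes the ratio of *Cd300a-/-* to WT had opposite signs in the SiglecF lo and SiglecF hi subsets, with counting intervals that left out 0 in both. *Stab1* stood at 0.90 among SiglecF lo and −0.07 among SiglecF hi libraries, a difference (SiglecF hi less SiglecF lo) of −0.97 (−1.06 to −0.88). *Gas6* stood at 0.34 and −0.08, a difference of −0.43 (−0.59 to −0.26). *Mfge8* went the other way, at −0.68 and 0.16, a difference of 0.84 (0.62 to 1.06). With 1 library per group the differences were not tested, and the intervals cover counting error only. The SiglecF hi ratios of *Stab1* and *Gas6* were small and within the threshold.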

How the results depend on the processing

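None of the 9 genes changed its direction where it was called under the alternatives tried, while 1 pathway gene called lower between subsets in WT and 4 in *Cd300a-/-* mice had a ratio over 0 without centring. Of 135 values of the 9 genes under the alternatives, 114 stayed within their counting interval and 21 moved beyond it, 18 of them through leaving out the centring of subset ratios. A threshold of 1 in place of 0.5 left 0 of the 9 genes called between genotypes in SiglecF lo neutrophils and 2 between subsets in *Cd300a-/-* mice. Of the pathway genes it left 6 between genotypes in SiglecF lo, 1 in SiglecF hi, 10 between subsets in WT and 14 in *Cd300a-/-* mice, since fewer genes pass a larger size. With a mean TPM over 1, *Xkr8* entered and 1 of the 9 genes and 6 pathway genes were called between genotypes in SiglecF hi neutrophils, and 4 pathway genes with a TPM over 10 in at least 1 library, as more genes were compared. TMM-scaled CPM and centring each left 1 pathway gene called there, in place of 2, as the ratio of *Gpr132* went from 0.51 to 0.49 and 0.47. All other counts of genes called, both directions together, stayed within 1.5 times the reported ones. Taken by direction they did not. Without centring, the pathway genes went from 19 higher and 16 lower to 40 and 4 in WT, and from 15 and 24 to 37 and 10 in *Cd300a-/-* mice, and the 9 genes from 3 and 1 to 4 and 0 and to 5 and 1. A mean TPM over 1 raised the lower pathway genes from 8 to 13 between genotypes in SiglecF lo neutrophils and from 16 to 25 between subsets in WT. A threshold of 1 left 0 of the 9 genes lower between subsets in WT, in place of 1. The counts of *Xkr8* (24 to 162) and of *Mertk* in SiglecF lo neutrophils limit what could be seen for these genes. No paired analysis was made.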
